A study of Homo sapiens with 6 samples.

Results

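The genes described here are the subunits of the oxidative phosphorylation (OXPHOS) machinery, encoded by the nuclear and the mitochondrial genomes. Members were chosen by symbol and gene type: protein-coding genes named NDUFA, NDUFAB, NDUFB, NDUFC, NDUFS or NDUFV with a number, SDHA to SDHD, UQCR, COX4 to COX8, ATP5F1, ATP5M, ATP5P, MT-ND, MT-CO, MT-CYB and MT-ATP, without the NDUFAF assembly factors. The rule used no measured value, and it found 98 of the 31369 genes in the table, 85 nuclear and 13 mitochondrially encoded. The symbol rule places NDUFA4 and its relative NDUFA4L2 beside complex I genes, but they are described with complex IV, where the NDUFA4 protein is now placed. It also takes in NDUFC2-KCTD14 and ATP5MF-PTCD1, readthrough genes that join a subunit gene to its neighbour. COX4I2, COX7A1, COX7B2 and COX8C were not analysed here.

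RNA sequencing compared HK-2 cells, an established human kidney proximal tubule line, in a control group (NC, 3 samples) and in a group overexpressing PPM1K (OE, 3 samples). PPM1K is the mitochondrial phosphatase that activates the branched-chain keto acid dehydrogenase. NC carries the genotype entry WT and OE the entry PPM1K overexpress. The sample titles name instead a short hairpin control (shControl) and a PPM1K short hairpin (shPPM1K), so the genotype entry was used. All 6 samples share the treatment entry Chronic kidney disease and the time entry Day 10, although no disease treatment of the cells is described. The cell line entries read HK-2, HK-4, HK-6, HK-8, HK-10 and HK-12 from sample to sample, with the cell type given as HK-2 throughout. Per the study's methods, PPM1K was introduced on a plasmid with a Lipofectamine reagent, and the plasmid given to NC is not described. The study speaks of biological replication but does not say whether the 3 samples of a group came from separate cultures, so p-values measure only the spread between these samples, which may be technical.

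OXPHOS is the process by which mitochondria make ATP. Complexes I and II pass electrons from NADH and succinate to coenzyme Q, complex III passes them to cytochrome c, complex IV passes them to oxygen, and the proton gradient built on the way drives complex V, the ATP synthase. Complex II is wholly nuclear-encoded, whereas the other complexes are mosaics whose hydrophobic core subunits are transcribed inside the mitochondrion as long polycistronic RNAs. Proximal tubule cells of the kidney depend heavily on this machinery for solute transport, while tubule cells in culture are known for a larger use of glycolysis.

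PPM1K was counted 37, 19 and 53 times in NC replicates 1, 2 and 3 and 3294, 3531 and 2919 times in OE replicates 1, 2 and 3, so its direction followed the genotype entry. Total counts per sample were 34635770 to 39850802. Epithelial markers of the line (KRT8, KRT18, KRT19, PAX8) were well counted, but the defining transporters and receptors of differentiated proximal tubule were near 0: LRP2 averaged 0.167 counts, AQP1 2.33 and CUBN 3.17. HAVCR1 (log2 fold change −1.08) and GGT1 (−1.09) were lower in OE at more than a 2-fold change. The part of this change in marker genes in the results below was not tested. Markers of other cell types were also low, with mean counts of 0.333 for PTPRC, 4 for CD68, 71.5 for PECAM1 and 40.8 for CDH5. Of these, PECAM1 and CDH5, both markers of endothelium, could be tested. PECAM1 was higher in OE (log2 fold change 0.52, edgeR adjusted p = 0.0342), a call lost in 8 of 16 alternatives, among them DESeq2 and leaving out NC replicate 1 or 2 or any 1 OE sample. CDH5 did not pass (0.21), and the part of these markers in the results below was not tested. In bulk RNA, fewer cells of a kind and less RNA per cell cannot be told apart.

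The mitochondrial members are packed so tightly that some share bases, which matters for counts made per gene. MT-ATP8 and MT-ATP6 lie on the same strand and overlap by 46 bases, and MT-ND4L and MT-ND4 overlap by 7. Both junctions are shown from GRCh38, plus strand, chrM:8515-8584 and chrM:10740-10786, with the bases that belong to both genes in capitals.
MT-ATP8 and MT-ATP6: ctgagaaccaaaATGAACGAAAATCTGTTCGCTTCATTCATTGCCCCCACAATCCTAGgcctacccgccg
MT-ND4L and MT-ND4: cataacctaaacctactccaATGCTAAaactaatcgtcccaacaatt
The capitals open with the ATG start of the downstream gene. A read over them cannot be given to one gene alone, and how the authors counted such reads was not stated. MT-ATP6 also has a nuclear copy, MTATP6P1, which matched it over all 681 bases with 10 mismatches, an identity of 98.53%. The stretch of 60 bases from base 107 of the gene shows how little separates them, with the mismatches in capitals.
MT-ATP6: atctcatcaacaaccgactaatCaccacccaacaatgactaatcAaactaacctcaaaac
MTATP6P1: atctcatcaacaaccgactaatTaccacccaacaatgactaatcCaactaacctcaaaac

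MTATP6P1 held a mean of 36912 counts. Of the 93 annotated nuclear copies of mitochondrial subunit genes in the table, 8 could be tested, 0 were higher in OE and 3 were lower (MTATP6P1 −0.17, MTND4P12 −0.33, MTCO3P12 −0.66). Without NC replicate 2 none of these 3 passed. Among all tested genes 24.9% were higher in OE and 23.7% lower. Reads of a copy and its parent can be exchanged in counting, so levels of these pairs are uncertain.

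Nuclear members have promoters of their own, and several factors are known to act on them, among them NRF1. Of the 85 nuclear members, 68 had a promoter window in RefSeq (GRCh38.p14), from 250 bases before to 50 after the gene start. The NRF1 core letters GCGCATG, searched on both strands (the other strand reads CATGCGC), were found in 14 of the 68, or 20.6%, against 4.67% of 27305 RefSeq promoters of the same length. The 4 windows below are shown because they carry the same letters in genes that moved in opposite directions, with the letters in capitals, read on the gene's strand. NDUFS6 (chr5:1801341-1801387, plus strand) and NDUFA6 (chr22:42090911-42090957, minus strand) were higher in OE. ATP5MC2 (chr12:53676096-53676142, minus strand) and ATP5F1C (chr10:7788135-7788176, plus strand) were lower, and in ATP5F1C the matches on both strands overlap.
NDUFS6: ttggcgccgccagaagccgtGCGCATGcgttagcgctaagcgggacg
NDUFA6: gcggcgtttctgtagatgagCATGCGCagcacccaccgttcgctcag
ATP5MC2: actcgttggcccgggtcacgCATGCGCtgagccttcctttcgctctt
ATP5F1C: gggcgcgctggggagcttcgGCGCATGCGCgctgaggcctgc

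The letters were present in 4 of 11 windows of members that were higher and in 2 of 18 of those that were lower. For the YY1 letters AAGATGGC the counts were 4 of 11 and 0 of 18, with 16.2% of the member windows and 3.03% of all windows. For the ETS letters CCGGAAG they were 2 of 11 and 4 of 18, with 29.4% and 10.7%. These are descriptions of letters in a window and say nothing of binding.

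Levels were compared between genes in FPKM, the authors' fragment counts divided by transcript length and by the total of mapped fragments. The mitochondrial members were abundant, from a mean of 367.6 FPKM over the 6 samples for MT-ND6 to 12910 for MT-ATP8, with a median of 6032. The tested nuclear members had a median of 14.45 FPKM. NDUFS5, an accessory subunit of complex I, stood far above the rest of them at 1602 FPKM, which is also above MT-ND6, and the next nuclear gene, NDUFS6 of the same complex, was at 208. At the low end were NDUFB8 (0.233 FPKM), NDUFA11 (0.243) and NDUFC2 (0.242), all of complex I. Counts, FPKM and the total counts of the samples imply gene lengths from 223 bases for MT-ATP8 to 20859 for NDUFA10. Their annotated exons hold 207 and 19359 bases, so the implied lengths are approximate. Some nuclear genes were thus divided by far more bases than a mature subunit mRNA has, which lowers their FPKM. NDUFS5 was divided by only about 590 bases (548 in its annotated exons). COX4I1 of complex IV was divided by about 5188 (4816 in its annotated exons), so the lead of NDUFS5 in FPKM is in part one of length.

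**Figure D1:**
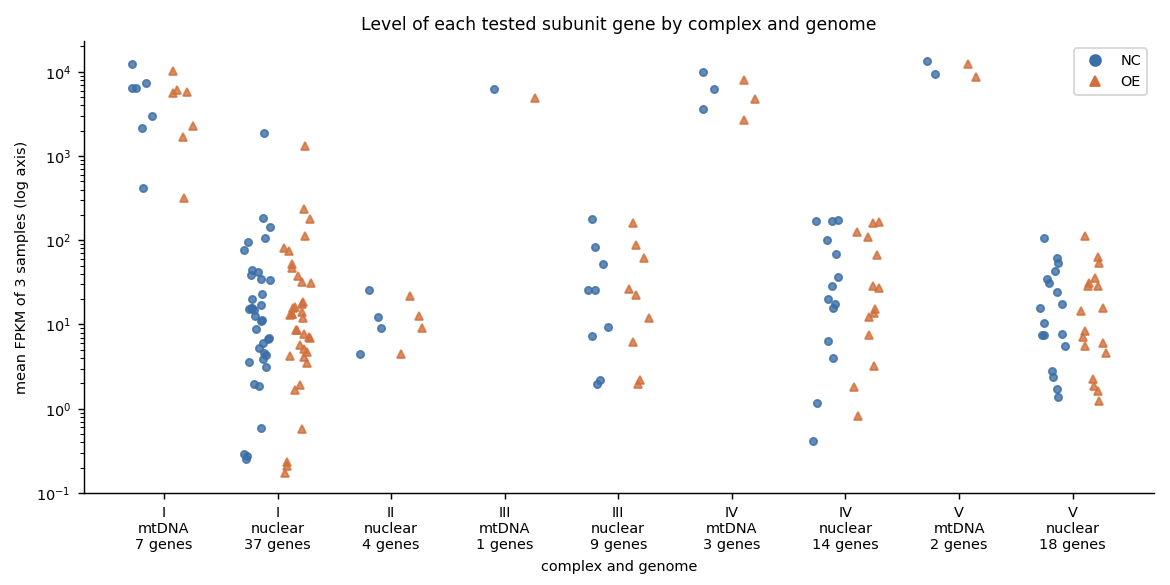
Mean FPKM of each tested member in NC (circles) and OE (triangles) by complex and genome, on a log axis. The mitochondrial genes lie above the nuclear genes of their complex, except that nuclear NDUFS5, at 1895 in NC and 1309 in OE, lies above MT-ND6 in complex I.

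Several low levels belong to genes that share exons with another annotated gene on the same strand, which held far more reads. NDUFB8 averaged 0.642 CPM in NC while the overlapping RP11-411B6.6 averaged 213. CPM is the count scaled to the TMM-adjusted size of the library. NDUFC2 averaged 0.632 CPM against 31.3 for NDUFC2-KCTD14, and NDUFA11 1.46 CPM against 21.3 for AC024592.12. ATP5MG (4.35 against 71.4 for RP11-770J1.8), UQCR11 (4.53 against 41.4 for AC005943.2), NDUFA9 (6.60 against 44.1 for RP11-500M8.7) and ATP5PO (5.93 against 21.6 for AP000304.12) showed the same. These subunits are uncertain here, and so is NDUFA7, with at most 6 counts in a sample. Of these overlapping genes with more reads, only AP000304.12 passed the test, and it was lower (−0.18).

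The comparison of OE with NC asks which subunit genes changed when PPM1K was overexpressed. A gene passed at an adjusted p under 0.05 in edgeR's quasi-likelihood test (Benjamini-Hochberg over 15878 tested genes), and was called a DEG where the fold change was also above 2 or below 0.5. Of the 98 members 95 could be tested, 82 nuclear and 13 mitochondrial, and NDUFA7, COX6B2 and ATP5MGL were too low. Among the 95, 13 were higher in OE, 36 were lower and 46 did not pass. In percent, 13.7% were higher and 37.9% lower, beside 24.9% and 23.7% of all tested genes. The median log2 fold change was −0.12 for the members and −0.00 for all tested genes.

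The changes were small. One member, NDUFA4L2, was a DEG, and it was higher, where 1.73% of all tested genes were DEGs that were higher and 3.79% DEGs that were lower. The groups did not overlap in CPM, with every OE sample above every NC sample, for 14 of the 95 tested members. Over all tested genes that share was 28.2%. Every OE sample was below every NC sample for 35 of the 95, beside 27.1% of all tested genes. Per genome, the mitochondrial members had 0 higher and 11 lower of 13, and the nuclear members 13 higher (15.9%) and 25 lower (30.5%) of 82. Without OE replicate 1 the number of nuclear members that were higher fell from 13 to 8, while 28 were lower.

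**Figure D2:**
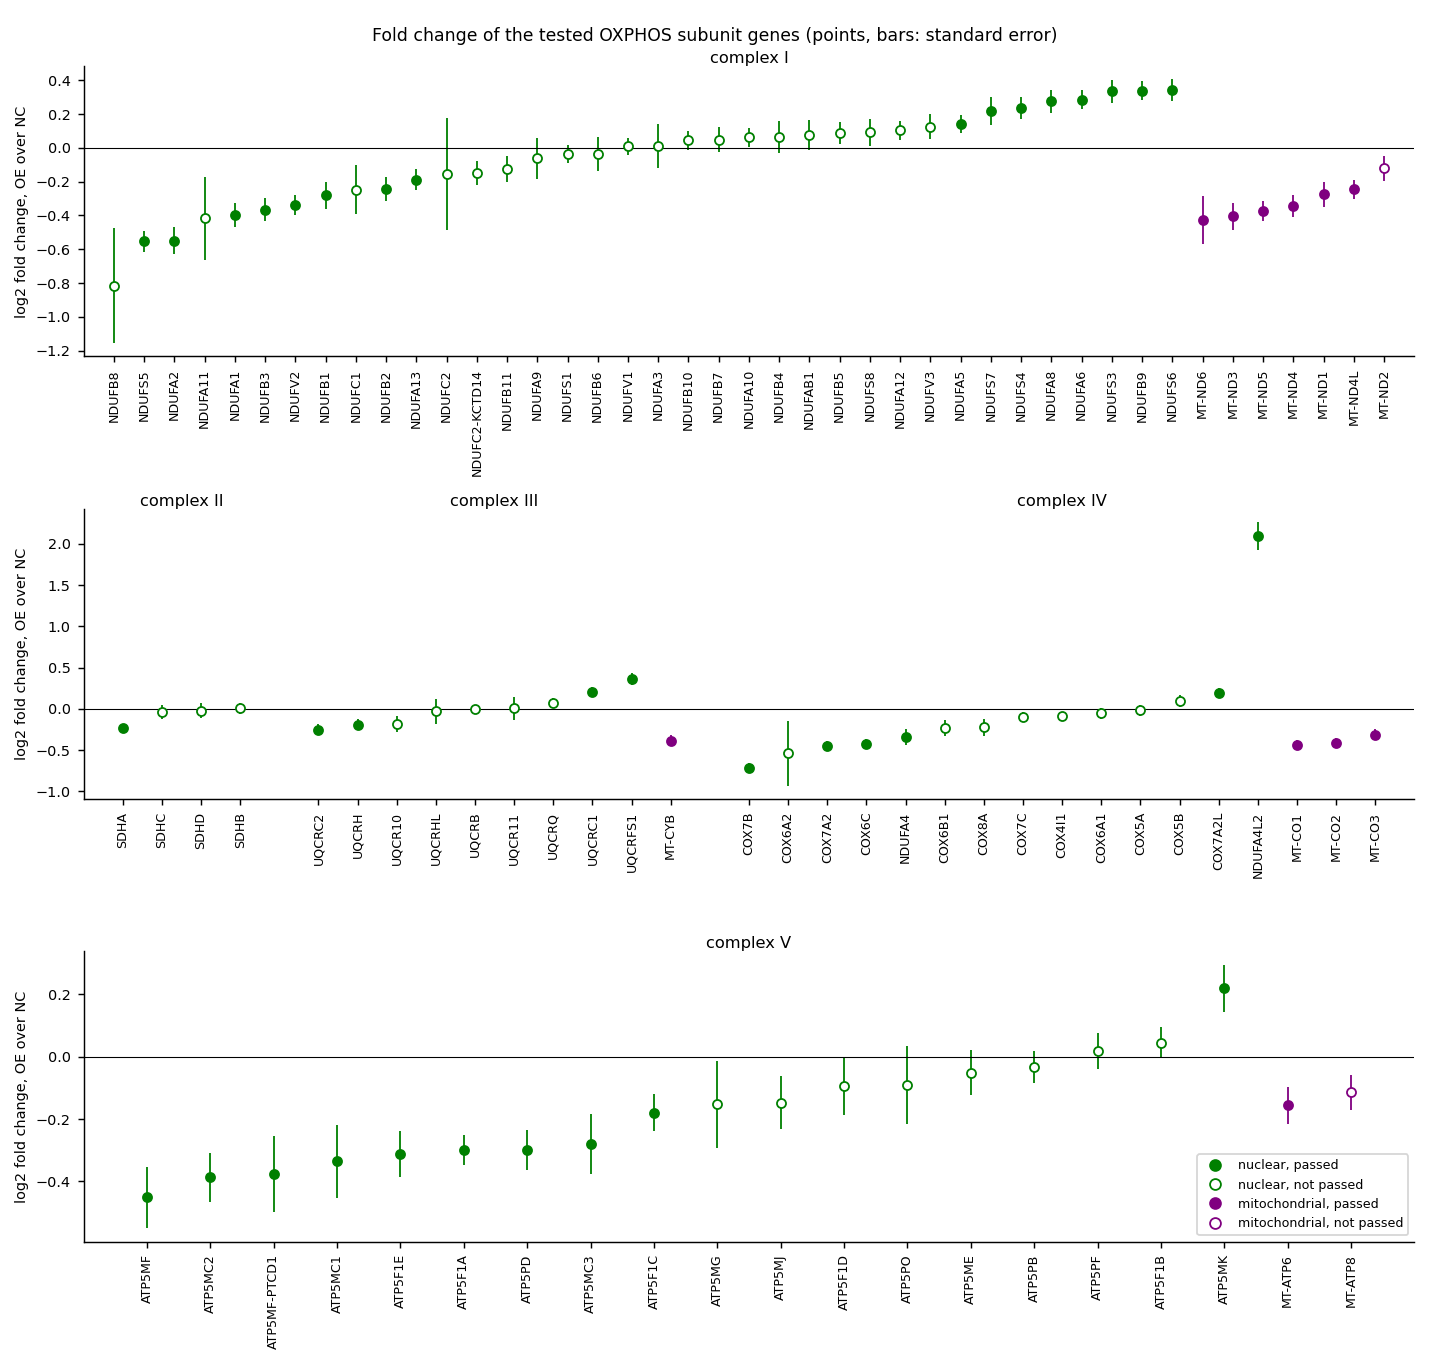
Log2 fold change of OE over NC for the tested members (points, with the standard error as bars), by complex, nuclear in green and mitochondrial in purple, filled where the gene passed the test. The 3 panels have different vertical scales. Complex I holds 8 filled points above 0 among nuclear genes and none among mitochondrial genes, and NDUFA4L2 lies alone at 2.10.

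The mitochondrially encoded genes were lower in OE, with all 13 log2 fold changes below 0, a median of −0.34 and a range from −0.44 to −0.11. MT-CO1, the catalytic core of complex IV that binds oxygen, had 10494, 10621 and 10671 CPM in NC and 8350, 7813 and 7332 CPM in OE. Its log2 fold change was −0.44 (standard error 0.06, edgeR adjusted p = 4.20e-06). The NC samples lay close together and every OE sample was below them.

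The other complex IV genes of this genome moved alike. MT-CO2, which carries the copper centre that takes electrons from cytochrome c, had 2584, 2611 and 2764 CPM in NC and 2152, 2016 and 1790 in OE (−0.42 ± 0.06 standard error, edgeR adjusted p = 1.16e-05). MT-CO3, the third core subunit, went from 8420 ± 195 CPM (SD, n = 3) to 6784 ± 719 CPM (SD, n = 3), a log2 fold change of −0.31 (edgeR adjusted p = 6.31e-04). Neither gene's groups overlapped. MT-CYB, the cytochrome b of complex III, had 7783, 7482 and 7950 CPM in NC and 6526, 5936 and 5293 in OE, and its log2 fold change was −0.39 (edgeR adjusted p = 6.82e-05).

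In complex I, 6 of the 7 mitochondrial genes, which form its proton-pumping membrane arm, were lower. MT-ND3 had 989, 1114 and 1222 CPM in NC and 948, 837 and 727 in OE (−0.40), and the highest OE sample was only just under the lowest NC sample. MT-ND5 (−0.37), MT-ND4 (−0.34), MT-ND1 (−0.27) and MT-ND4L (−0.24) also had groups that did not overlap. MT-ND2 had 6990, 7195 and 7813 CPM in NC and 7267, 7064 and 5887 in OE, with a log2 fold change of −0.12 (95% interval −0.26 to 0.02) that did not pass. Its OE replicate 1 lay within the NC range.

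MT-ND6 differs from the others in that it is encoded on the opposite strand of the mitochondrial DNA. It had 178, 330 and 209 CPM in NC and 205, 154 and 175 in OE, and the groups overlapped. Its log2 fold change of −0.43 (standard error 0.14, edgeR adjusted p = 0.0152) rested on NC replicate 2, without which it was −0.12 and did not pass. Without OE replicate 2 it did not pass either. In the study's read statistics, NC replicate 2 had the largest shares of antisense, intronic and intergenic reads of the 6 samples. The part of such reads in the MT-ND6 count was not tested.

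In complex V, MT-ATP6, the subunit of the proton channel, had 6743, 7093 and 7331 CPM in NC and 6559, 6383 and 6052 in OE, a log2 fold change of −0.16 (edgeR adjusted p = 0.0310). This call was lost without NC replicate 3, without OE replicate 2 or without OE replicate 3. MT-ATP8, which overlaps it, had 2854, 3022 and 3111 CPM in NC and 2917, 2703 and 2684 in OE, and did not pass (−0.11, 95% interval −0.22 to −0.00, edgeR adjusted p = 0.102). The ribosomal RNAs MT-RNR1 (−0.08, and 0.12 without NC replicate 2) and MT-RNR2 (−0.14) of the same genome did not pass, although MT-RNR2 passed as lower in 5 of 15 alternatives (DESeq2, GC and length offsets, no filter on low counts, upper quartile normalization and without OE replicate 1) and MT-RNR1 (−0.22) without NC replicate 1.

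**Figure D3:**
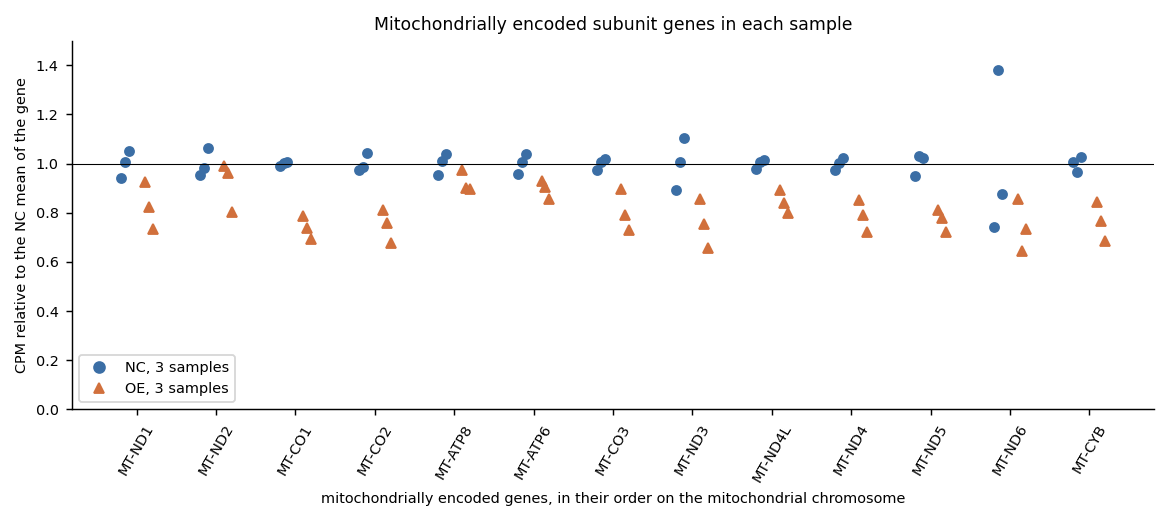
CPM of each mitochondrially encoded gene in each sample, divided by the NC mean of that gene, with genes in chromosome order (circles NC, triangles OE, 3 samples each). In 10 of the 13 genes all triangles lie below all circles, as was so for 27.1% of all tested genes. The exceptions are MT-ND2, MT-ATP8 and MT-ND6, and NC replicate 2 stands high in MT-ND6.

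Within each group the 13 genes kept a common order of samples. OE replicate 1 was the highest OE sample for 13 of 13 genes and OE replicate 3 the lowest for 12, while NC replicate 3 was the highest NC sample for 11 and NC replicate 1 the lowest for 12. The 13 genes come from 1 genome and are cut from shared precursor RNAs, so they are not independent of each other. OE replicate 3 was also the lowest of its group for 66 of the 82 nuclear members. Without it the median log2 fold change of the mitochondrial members was −0.29 and that of the nuclear members −0.03.

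The 37 tested nuclear genes of complex I had 8 higher (21.6%), 9 lower (24.3%), 20 not passing and a median log2 fold change of 0.01, and both shares were near those of all tested genes (24.9% and 23.7%). Among the nuclear core subunits, which hold the flavin and most of the iron-sulphur clusters, NDUFS3 and NDUFS7 were higher and NDUFV2 was lower. The call on NDUFS7 (0.22) was lost without NC replicate 2 or 3 or without OE replicate 1 or 2. NDUFS3 had 56.9, 47.8 and 56.4 CPM in NC and 72.8, 65.4 and 64.8 in OE, a log2 fold change of 0.33 (edgeR adjusted p = 3.13e-04). NDUFV2 had 67.8, 66.7 and 71.4 CPM in NC and 59.0, 52.8 and 51.0 in OE (−0.34, edgeR adjusted p = 8.06e-05). The groups of both genes were apart, in opposite directions. NDUFV1, which binds NADH, did not pass (0.01, 95% interval −0.09 to 0.11), nor did NDUFS1 (−0.04, 95% interval −0.14 to 0.06).

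Accessory subunits of complex I passed in both directions. NDUFS5 (chr1:39026318-39034636, plus strand), a small protein of the membrane arm that is stabilised by disulphide bonds, had 1122, 1061 and 1198 CPM in NC and 823, 782 and 700 in OE. Its log2 fold change was −0.55 (standard error 0.06, edgeR adjusted p = 2.24e-07), and all OE samples were well below NC. It alone held 13.9% ± 0.153 (SD, n = 3) of the counts of all nuclear members in NC and 10.3% ± 0.216 (SD, n = 3) in OE.

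NDUFA2, a subunit of the matrix arm, was lower by a like amount from a far lower level, with 20.6, 18.9 and 20.8 CPM in NC and 14.6, 13.8 and 12.9 in OE (−0.55, edgeR adjusted p = 9.52e-06). NDUFA1, a membrane arm subunit encoded on the X chromosome, fell from 43.9 ± 2.36 to 33.3 ± 2.69 CPM (SD, n = 3; −0.40, edgeR adjusted p = 7.28e-05). NDUFB3, also of the membrane arm, was at 39.96 ± 2.20 and 31.03 ± 1.33 CPM (SD, n = 3; −0.36, edgeR adjusted p = 1.15e-04). None of the 3 had overlapping groups.

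In the other direction, NDUFS6, a zinc-binding subunit needed late in assembly, had 174, 165 and 186 CPM in NC and 247, 218 and 200 in OE (0.34, edgeR adjusted p = 1.62e-04). NDUFB9 had 107, 102 and 114 CPM in NC and 143, 138 and 127 in OE (0.34, edgeR adjusted p = 4.25e-05). NDUFA6, an LYR-motif protein, had 213, 193 and 220 CPM in NC and 272, 250 and 241 in OE (0.29, edgeR adjusted p = 3.09e-04). For each of the 3 the lowest OE sample was above the highest NC sample, and so it was for NDUFA8 (0.28), NDUFS4 (0.24) and NDUFA5 (0.14). The call on NDUFS4 was lost without NC replicate 1 or OE replicate 1, and that on NDUFA5 without OE replicate 1 or any one NC sample.

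Of the 4 subunits of complex II, SDHA, the flavoprotein that oxidises succinate, was lower. It had 249, 233 and 242 CPM in NC and 199, 212 and 204 in OE, a log2 fold change of −0.23 (edgeR adjusted p = 5.17e-04) with groups that did not overlap. SDHB, the iron-sulphur subunit, did not pass (0.01, 95% interval −0.12 to 0.14), nor did the membrane anchors SDHC (−0.04, 95% interval −0.21 to 0.13) and SDHD (−0.03, 95% interval −0.21 to 0.15). Of the annotated SDHA copies, SDHAP1 (−0.50) and SDHAP3 (−0.56) were also lower, and whether reads were exchanged between them and SDHA was not tested.

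Complex III had 2 higher (22.2%) and 2 lower (22.2%) of 9 tested nuclear genes, near the 24.9% and 23.7% of all tested genes. Its UQCRC core proteins passed in opposite directions. UQCRC1 had 186, 172 and 185 CPM in NC and 213, 217 and 198 in OE (0.21, edgeR adjusted p = 0.00246). UQCRC2 had 37.8, 36.2 and 36.2 CPM in NC and 30.2, 32.6 and 29.7 in OE (−0.25, edgeR adjusted p = 0.00321). UQCRFS1, the Rieske iron-sulphur protein inserted last into the complex, had 30.3, 30.2 and 32.2 CPM in NC and 38.7, 44.1 and 36.6 in OE, the largest increase in the complex (0.37, edgeR adjusted p = 2.74e-04). In all 3 genes the groups were apart. UQCRH, the hinge protein, was lower (−0.19, edgeR adjusted p = 0.0274), but its OE replicate 1, at 262 CPM, lay among the NC samples at 247 to 284, and the call was lost without NC replicate 1 or 3 or without OE replicate 2 or 3. Its near copy UQCRHL, identical to it in 99.22% of 129 aligned bases, did not pass (−0.03).

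In complex IV, COX7B (chrX:77899440-77907376, plus strand), a small subunit of the membrane part, showed the largest decrease among all members with at least 100 mean counts. It had 63.1, 66.3 and 68.9 CPM in NC and 43.4, 37.5 and 39.6 in OE, and its CPM fell by 39.3%. The log2 fold change was −0.72 (standard error 0.06, edgeR adjusted p = 5.16e-09), and the groups were far apart. COX6C, another small membrane subunit, had 474, 478 and 534 CPM in NC and 391, 374 and 339 in OE (−0.43, edgeR adjusted p = 4.64e-06). The abundant COX4I1, a regulatory subunit that binds ATP, did not pass at 874 ± 43.9 and 820 ± 57.3 CPM (SD, n = 3; −0.09, 95% interval −0.20 to 0.02). In all, 4 of the 14 tested nuclear genes of complex IV were lower (28.6%), 2 were higher (14.3%) and the median was −0.16. Of all tested genes 23.7% were lower and 24.9% higher.

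Both genes that were higher in complex IV are relatives of a gene that was lower. COX7A2 had 72.4, 79.8 and 79.7 CPM in NC and 59.4, 56.3 and 53.8 in OE (−0.45, edgeR adjusted p = 1.49e-06). COX7A2L, whose protein joins complexes III and IV into supercomplexes, had 39.0, 38.0 and 40.5 CPM in NC and 45.9, 46.4 and 42.1 in OE (0.19, edgeR adjusted p = 0.0138). The FPKM ratio of COX7A2L to COX7A2 was 0.185, 0.164 and 0.174 in NC and 0.265, 0.282 and 0.268 in OE, with no overlap. The exact two-sided permutation p was 0.1, the smallest that 3 samples against 3 allow, and 0.2 after adjustment over the 6 ratios computed. The call on COX7A2L alone was lost without NC replicate 2, without OE replicate 1 or without OE replicate 2.

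NDUFA4L2 (chr12:57234903-57240715, minus strand), a relative of NDUFA4 known to be induced in low oxygen, had 42, 36 and 56 counts in NC and 202, 218 and 191 in OE. In FPKM these were 0.40, 0.33 and 0.51 against 1.79, 1.84 and 1.77, and the log2 fold change was 2.10 (standard error 0.17, edgeR adjusted p = 2.03e-09). NDUFA4 had 3.74, 4.16 and 4.24 FPKM in NC and 3.49, 2.89 and 3.34 in OE and was lower (−0.34, edgeR adjusted p = 0.00422). NDUFA4 stayed the more abundant of the pair in every sample, and the FPKM ratio of NDUFA4L2 to it was 0.102 ± 0.0209 in NC and 0.560 ± 0.0671 in OE (SD, n = 3; exact two-sided permutation p = 0.1, adjusted 0.2).

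NDUFA4L2 overlaps SHMT2, the mitochondrial serine hydroxymethyltransferase, on the opposite strand. The library kit kept strand, but whether the counting used it was not stated. SHMT2 had 4093, 3970 and 4228 counts in NC and 10551, 11924 and 10083 in OE (log2 fold change 1.31). The NDUFA4L2 count was 1.03%, 0.907% and 1.32% of the SHMT2 count in NC and 1.91%, 1.83% and 1.89% in OE, so NDUFA4L2 differed more between the groups than its neighbour. The part of SHMT2 reads in the NDUFA4L2 count was not tested.

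**Figure D4:**
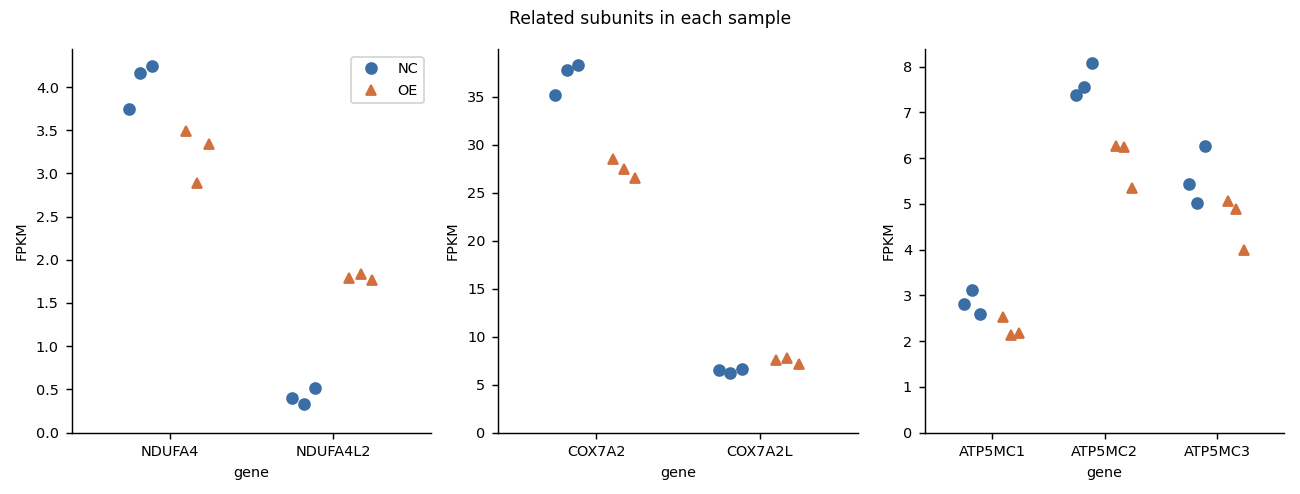
FPKM of related subunits in each sample (circles NC, triangles OE), with axes from 0. NDUFA4L2 rises from at most 0.51 to at least 1.77 while NDUFA4 is lower in OE, COX7A2L is higher while COX7A2 is lower, and the 3 genes of the ATP synthase c ring are all lower.

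Complex V had 9 lower (50%), 1 higher (5.56%) and 8 not passing of 18 tested nuclear genes, with a median of −0.17. The 9 include both ATP5MF and the readthrough gene ATP5MF-PTCD1, which shares exons with it and is not a separate subunit. The shares over all tested genes were 23.7% lower and 24.9% higher. The c ring, the rotor that protons turn, is made from 3 genes that encode the same mature protein, and all 3 were lower. ATP5MC2 had 31.0, 32.4 and 34.2 CPM in NC and 26.6, 26.0 and 22.0 in OE (−0.39, edgeR adjusted p = 3.19e-04). ATP5MC1 (−0.34, edgeR adjusted p = 0.0218) and ATP5MC3 (−0.28, edgeR adjusted p = 0.0208) had groups that only just missed each other, the lowest NC and the highest OE sample of ATP5MC1 being at 7.34 and 7.20 CPM. The call on ATP5MC1 was lost without NC replicate 2, OE replicate 2 or OE replicate 3, and that on ATP5MC3 without NC replicate 3 or OE replicate 3. The FPKM ratios within the ring overlapped between groups (exact two-sided permutation p = 0.9 for ATP5MC1 to ATP5MC3 and 0.2 for ATP5MC2 to ATP5MC3).

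In the catalytic head of the ATP synthase 3 of 5 genes were lower. ATP5F1A, the alpha subunit, had 119, 120 and 126 CPM in NC and 99.87, 100.1 and 97.11 in OE (−0.30, edgeR adjusted p = 3.72e-05). ATP5F1E (−0.31) and ATP5F1C (−0.18) were also lower, the latter not without NC replicate 1, NC replicate 2 or OE replicate 3. The beta subunit ATP5F1B, which carries the catalytic sites, did not pass at 262 ± 3.73 and 270 ± 11.4 CPM (SD, n = 3; 0.05, 95% interval −0.05 to 0.14). In the peripheral stalk ATP5PD was lower (−0.30) and ATP5PB, ATP5PF and ATP5PO did not pass.

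Among the small membrane subunits of complex V, ATP5MF had 17.1, 17.4 and 18.2 CPM in NC and 15.3, 12.2 and 11.01 in OE (−0.45, edgeR adjusted p = 7.32e-04), with no overlap. The readthrough gene ATP5MF-PTCD1, which shares its exons, was also lower (−0.38), a call lost without NC replicate 3 or OE replicate 2, while PTCD1 itself did not pass. ATP5MK was the only gene of complex V that was higher, with 23.4, 24.7 and 24.1 CPM in NC and 30.5, 28.0 and 25.7 in OE (0.22, edgeR adjusted p = 0.0214), and this call was lost without NC replicate 1 or OE replicate 1.

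As a share of all counts, the mitochondrial members took 7.56%, 7.94% and 8.02% in NC and 6.76%, 6.32% and 5.85% in OE. The nuclear members took 0.807%, 0.786% and 0.851% in NC and 0.771%, 0.749% and 0.701% in OE. Both shares were lower in each OE sample than in each NC sample. The nuclear share leans on NDUFS5, which held 13.9% of the nuclear member counts in NC and 10.3% in OE. Without the counts of NDUFS5 the nuclear shares of the groups overlapped. The lower nuclear share is not a fall common to the 85 genes, since of 82 tested 13 were higher and 25 lower. The mitochondrial members had 9.63 ± 0.411 (SD, n = 3) counts for each nuclear one in NC and 8.52 ± 0.225 (SD, n = 3) in OE, also without overlap. By complex, the summed CPM of OE was 0.826 of that in NC for the mitochondrial genes of complex I, 0.765 for complex III, 0.766 for complex IV and 0.905 for complex V. For the nuclear genes the ratio was 0.913 for complex I, 0.879 for complex II, 1.00 for complex III, 0.893 for complex IV and 0.912 for complex V. The nuclear sums overlapped between groups for complex III and for complex I (3016.8 to 3327.3 CPM in NC, 2693.8 to 3080.5 in OE). NDUFS5 is part of the complex I sum. The 37 tested nuclear genes of complex I had a median log2 fold change of 0.01, with 18 below 0 and 19 above.

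**Figure D5:**
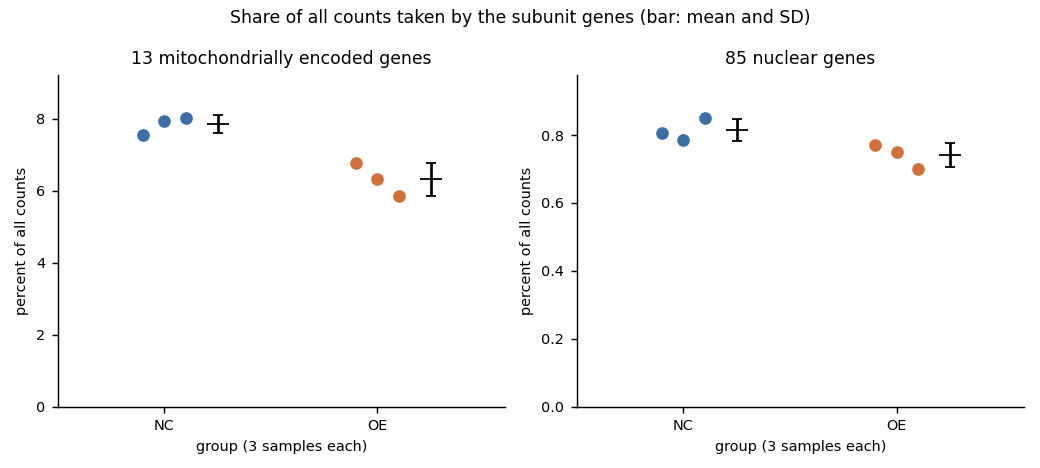
Percent of all counts taken by the mitochondrially encoded members (left) and the nuclear members (right) in each sample, with the group mean and SD beside the points, and both vertical axes starting at 0. In both panels the 3 OE samples are below the 3 NC samples, from 7.84% to 6.31% on average at left and from 0.815% to 0.740% at right. NDUFS5 alone holds 13.9% of the nuclear member counts in NC and 10.3% in OE, and without it the groups at right overlap.

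The factors that build these complexes are outside the symbol rule. Of 58 tested genes in the assembly lists, which include the inhibitor ATP5IF1, 24 were higher and 11 were lower. Their median log2 fold change was 0.13, where 24.9% of all tested genes were higher and 23.7% lower. For complex I assembly 8 of 18 were higher and 3 lower, with NDUFAF2 at 0.66 and NDUFAF4 at 0.59. For complex IV it was 10 and 5 of 26, with CMC1 (0.83), COA6 (0.61) and the copper chaperone SCO1 (0.24) higher and HIGD2A (−0.93), PET100 (−0.64), COA3 (−0.63) and COX16 (−0.50) lower.

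For complex III assembly 4 of 6 were higher and 1 lower, with UQCC3 at 0.44 and the Rieske protein translocase BCS1L at 0.35. Complex II assembly had 1 higher and 1 lower of 4. The complex V list, of 4 genes, also holds the ATP synthase inhibitor ATP5IF1. That inhibitor was its only higher gene (0.17), and the assembly factor ATPAF2 was lower (−0.21). Of 12 tested genes of coenzyme Q synthesis 7 were higher and 1 was lower, with a median of 0.28. Over all tested genes the shares were 24.9% higher and 23.7% lower. PDSS2, a subunit of the enzyme that makes the isoprenoid tail, was at 0.89, COQ9 at 0.39 and COQ6, the lower one, at −0.45. Cytochrome c (CYCS, 0.38) and cytochrome c1 (CYC1, 0.23) were higher, and the phosphate carrier SLC25A3 (−0.25) and the ADP/ATP carrier SLC25A4 (−0.21) were lower. No gene of these lists was a DEG.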

How the data were processed

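The members and lists were chosen with earlier results of these data known. Per the study's methods, the authors extracted total RNA, made libraries with a stranded mRNA kit, discarded reads with more than 2 N bases, trimmed with FASTX-Toolkit and aligned to GRCh38 with HISAT2. The submitters' processing notes also list mm10. The deposited counts are uniquely mapped reads per gene without normalization, and the authors' FPKM values were made from the same reads. The counting program, its use of strand and the annotation are not given in the sources used here. GENCODE release 44, used for positions and overlaps, matched 31277 of 31369 gene identifiers.

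The main test was the quasi-likelihood F-test of edgeR 4.0.16 (R 4.3.3) after filterByExpr and TMM, over 15878 genes and with p-values adjusted by the Benjamini-Hochberg method. Each standard error was derived from a gene's fold change and F value. Total counts of 34635770 to 39850802 give little counting error for most members, but 4 tested members averaged under 100 counts. No samples of a group were copies of each other, with a mean chi-square per gene of 5.12 to 11.7. Scripts were tested on simulated data. Ratios of related genes were compared by exact permutation over samples.

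Named with values were all mitochondrial members, DEGs, the members with the largest changes in each complex (mean count of at least 100), those with the highest and lowest FPKM, related subunits and all SDH genes. Of these, COX6A2 (log2 fold change −0.54), COX8A (−0.22) and NDUFB8 (−0.81) did not pass, and their fold changes are given only here. COX8A passed as lower in 3 and NDUFB8 in 4 of 16 alternatives. Others named with values, the assembly, coenzyme Q and carrier genes among them, were picked after their values were seen. Alternatives were DESeq2 1.42.0, its size factors in edgeR, upper quartile scaling, scaling on nuclear genes, no filter on low counts, protein-coding genes only, limma 3.58.1 on log2(FPKM + 1) and log2(FPKM + 0.1), the replicate number as a block, each sample left out in turn and, added after the data had been seen, offsets for GC content and length. Python 3.11.15, pandas 2.3.3 and matplotlib 3.10.9 were used. Promoter sequences are from RefSeq. A result that is counted in the totals is not reported here.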

Additional observations from a re-analysis of the deposited data

How the results depend on the processing

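All 13 mitochondrial members stayed below 0 in each of the 16 alternatives, and NDUFA4L2, COX7B, NDUFS5, NDUFA2, COX7A2, MT-CO1 and MT-CO2 passed in each. The nuclear members that were higher numbered 8 to 14 with each sample left out in turn, and the lowest, 8, came without OE replicate 1. With limma on log2(FPKM + 0.1), 7 mitochondrial members were lower, and with limma on log2(FPKM + 1), 0 members were DEGs, since on that scale NDUFA4L2 differed by 0.99. The single coenzyme Q gene that was lower became 0 with DESeq2 and with limma on log2(FPKM + 0.1), and 0 to 2 with a sample left out (0 without NC replicate 2, 2 without NC replicate 1). The 2 cytochrome and carrier genes that were higher became 1 to 3 with a sample left out (1 without OE replicate 2, 3 without OE replicate 3), and the 2 that were lower became 1 with DESeq2, both limma fits and the replicate block, and 1 to 4 with a sample left out (1 without NC replicate 1, NC replicate 3 or OE replicate 1, 4 without NC replicate 2). Shares by summed FPKM in place of counts differed between OE and NC by −0.167 points (nuclear) and −3.78 points (mitochondrial). The cause of these differences was not tested.

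The replicate block gave 12 nuclear members higher, 26 lower and 10 mitochondrial members lower, and changed no other count of members by over 1.5 times. Across genes, samples with the same number deviated from their groups with correlations of −0.0147, −0.133 and −0.130. The labels give such samples only a number, and these correlations cannot tell whether they shared a culture or a batch. Upper quartile scaling, which moved the median of all genes to −0.04, gave 10 nuclear members higher, 29 lower and 12 mitochondrial members lower. Calls were also lost for NDUFA5 in 8 alternatives, NDUFS7 and SLC25A4 in 7, MT-ATP6 and UQCRH in 6, MT-ND6 in 5, ATP5MC1 and ATP5MC3 in 4, and ATP5F1C, ATP5MK, COX7A2L and COQ6 in 3, and for MT-ND1 and ATP5F1E with both limma fits, while COX6B1 (−0.23) passed in 8.

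Of the genes that did not pass, NDUFV1 changed sign to −0.0020 with protein-coding genes only and −0.029 with upper quartile scaling, SDHB changed sign to −0.017 with GC and length offsets, −0.0040 with protein-coding genes only and −0.031 with upper quartile scaling, and UQCR11 to −0.012, −0.0051 and −0.033 in the same order. With a sample left out, values ran from −0.017 to 0.042 for NDUFV1, −0.221 to 0.121 for MT-RNR1, −0.012 to 0.037 for SDHB, −0.083 to 0.135 for UQCR11, −0.147 to 0.0036 for COX6A1, −0.106 to 0.033 for SDHC, −0.092 to 0.063 for SDHD and −0.151 to 0.107 for UQCRHL.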
